A study of Ursus arctos with 12 samples.

Results

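The 7 genes described here encode mitochondrial carriers that sit in the inner mitochondrial membrane: 4 uncoupling proteins (UCP2, UCP3, SLC25A14 and SLC25A27) and 3 ADP/ATP carriers (SLC25A4, SLC25A5 and SLC25A6). They were taken by gene symbol from the table of counts, which lists 30249 genes, and 7 of 7 had a row. Muscle RNA came from biopsies of the vastus lateralis, a thigh muscle, of 6 free-ranging brown bears (Ursus arctos) aged 2 to 3 years. Each bear gave 1 library in winter, during hibernation, and 1 in summer, during its active period, so the same 6 animals form both groups of 6 and no animal was treated. The comparison asks how muscle that rests and fasts through hibernation differs from muscle of the active bear.

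ADP/ATP carriers exchange the ATP made in the mitochondrial matrix for ADP from the cytosol, and every ATP that leaves the matrix by this route draws on the membrane potential. SLC25A4 (also called ANT1) is the form typical of heart and skeletal muscle, SLC25A5 (ANT2) is linked to dividing and less specialised cells, and SLC25A6 (ANT3) is found in most tissues. Uncoupling proteins are relatives of these carriers. UCP1, the founding member, lets protons back into the matrix in brown fat and so releases heat, UCP3 is found mainly in skeletal muscle, UCP2 is found in many tissues including leukocytes and fat, and SLC25A14 (UCP5) and SLC25A27 (UCP4) are best known from the nervous system.

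Between 20191068 and 27283155 reads per library were counted on genes in summer and between 16742406 and 32140160 in winter. The 10 most abundant genes held 18.6 to 27.4% of the reads in summer and 22.1 to 26.7% in winter. Of 10 markers of skeletal muscle fibres 9 had a row, and these 9 were found in each of the 12 libraries, at a summed level of 123065 to 188676 CPM (counts scaled to library size with edgeR's TMM method) in summer and 116774 to 157953 CPM in winter. CKM gave the largest part of this sum, with medians of 66207 CPM in summer and 69967 CPM in winter. In the edgeR test used below, 1 of these 9 markers was higher and 2 were lower in winter (adjusted p below 0.05). Of all genes 39.5% were called in that test. Levels below are log2 CPM, with a prior count of 2. Longer transcripts give more reads, and no transcript lengths were used here, so levels were compared between seasons and not between genes. The winter library of bear 1509 stood apart in markers of nerve and Schwann cells, whose summed level was 258.1 CPM there and 1.85 to 10.2 CPM in the other winter libraries. The summer library of bear 1316 had the highest summed level of adipocyte markers, 1424 CPM, against 299 to 519 CPM in the other summer libraries.

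In winter, UCP3 mRNA was 1.89 times its summer level, while the mRNA of the muscle ADP/ATP carrier SLC25A4 was at 0.579 times and that of SLC25A5 at 0.685 times its summer level. SLC25A6 and SLC25A27 had folds of 0.934 and 0.927 and were not called. UCP2, at 0.626 times its summer level, and SLC25A14, at 1.6 times, lay just outside the threshold of the test. In edgeR's quasi-likelihood test with season as the only term, at a Benjamini-Hochberg adjusted p below 0.05, 1 of the 7 genes was higher and 2 were lower in winter. Among all 17290 genes with at least 30 reads, 39.5% were called, 19.6% as higher and 19.9% as lower, so the share of called carriers was close to that of all genes. With a replicate block for the bear, which compares each animal with itself, 1 was higher and 3 were lower, UCP2 being the one added, where 40.8% of all genes were called. UCP3 and SLC25A14 were higher and SLC25A4 and SLC25A5 lower in each of the 6 bears, 4 of 7 carriers, where 37.4% of all genes moved in the same direction in all bears. On the log2 scale SLC25A14 rose by only 0.02 in bear 1317 and 0.09 in bear 1511. In bear 1317 it had 37 reads in summer and 29 in winter, so its direction there rests on the scaling between libraries. All 7 carriers passed the filter on low counts. By the limits of differentially expressed genes in the study's methods (a fold above 1.3 or under 0.77 and an adjusted p under 0.01), which 24% of all genes met, UCP3 and SLC25A4 passed.

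**Figure D1:**
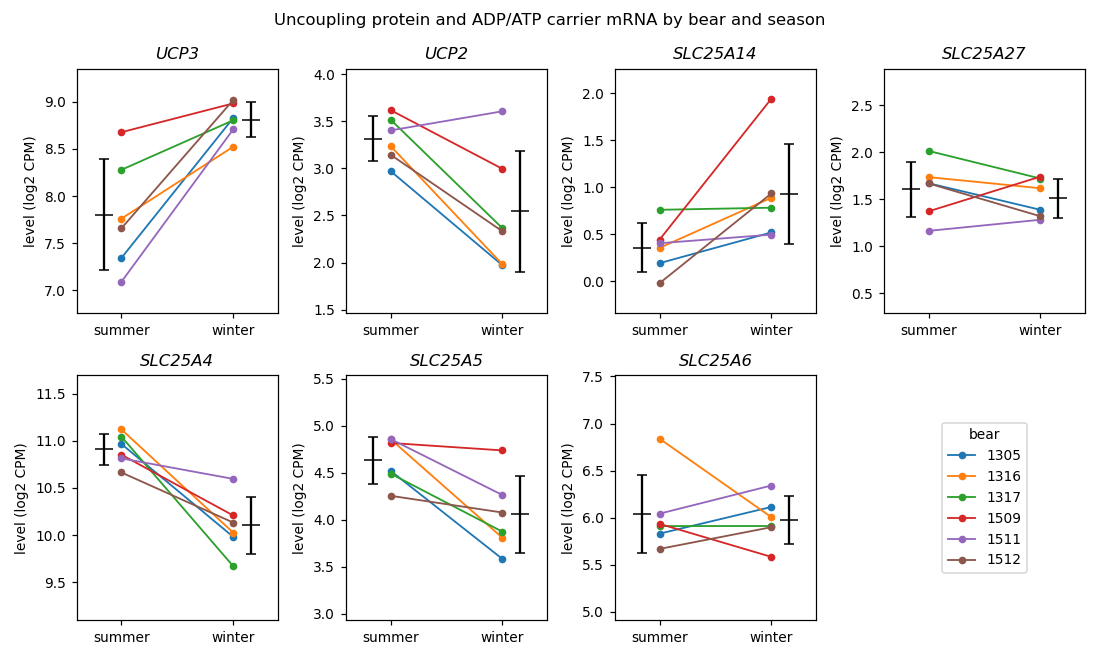
Level of each carrier mRNA (log2 CPM, y axis, 2.6 log2 units in each panel) in summer and winter, with a line per bear and the mean and SD of the 6 libraries beside the points. The lines of UCP3 all rise and those of SLC25A4 and SLC25A5 all fall, while UCP2 rises in bear 1511 alone.

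UCP3 had 3410 to 15936 reads per library. It ran from 7.09 to 8.68 log2 CPM in summer (median 7.71) and from 8.52 to 9.02 in winter (median 8.82), so winter was high and the groups overlapped through bear 1509, whose summer library lay above the winter library of bear 1316. For 9.12% of all genes, and for 0 of the 7 carriers, each winter library lay above each summer library. The mean was 7.80 ± 0.59 in summer and 8.81 ± 0.18 in winter (SD, n = 6). The log2 fold change was 0.92 (standard error, SE, 0.23, adjusted p = 0.00587 in edgeR), and UCP3 was higher in 6 of 6 bears. Bear 1511 went from 7.09 to 8.71, bear 1305 from 7.34 to 8.83 and bear 1512 from 7.66 to 9.02, so that the 3 bears lowest in summer had reached the level of the others. Bear 1509, at 8.68 in summer, gained 0.31, and bear 1317, at 8.28 in summer, gained 0.53. The winter levels of the 6 bears lay closer together than their summer levels, and this difference in spread was not tested. With a replicate block for the bear the log2 fold change was 1.01 (adjusted p = 0.00164 in edgeR), and over all alternatives the adjusted p stayed between 2.21e-07 and 0.0293.

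UCP2 was counted at 90 to 278 reads per library. It ran from 2.97 to 3.62 log2 CPM in summer (median 3.32) and from 1.97 to 3.61 in winter (median 2.35). Winter levels of bears 1305, 1316, 1317 and 1512, at 1.97 to 2.37, were below every summer library, bear 1509 reached 3.00, and bear 1511 stood at 3.61 among the highest summer values. UCP2 was at 3.32 ± 0.24 in summer and 2.54 ± 0.64 in winter (SD, n = 6), a log2 fold change of −0.68 (SE 0.26, adjusted p = 0.0534 in edgeR) that was not called. With a replicate block for the bear UCP2 was called lower in winter, at −0.78 (SE 0.19, adjusted p = 0.00832 in edgeR). It was lower in 5 of 6 bears, with differences from −1.26 to −0.62, and 0.20 higher in bear 1511. Without bear 1511 its log2 fold change was −0.95 (adjusted p = 0.00528 in edgeR), and without any of the other bears its adjusted p was 0.0882 to 0.158.

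Markers of macrophages and leukocytes, cells in which UCP2 is also found, were lower in winter as well. Of the 16 markers tested, 11 were lower and 0 higher at an adjusted p below 0.05, and their summed level was 129 to 188 CPM in summer and 53.0 to 100.2 CPM in winter, lower in 6 of 6 bears. Of the 5 endothelial markers 4 were lower and 0 higher, and their summed level was 577 to 916 CPM in summer and 381 to 449 CPM in winter, lower in 6 of 6 bears. Of the 6 adipocyte markers 1 was lower and 1 was higher. Their summed level, most of it from FABP4, was 299 to 1424 CPM in summer and 217 to 468 CPM in winter, also lower in 6 of 6 bears. Of the 6 fibroblast markers 4 were lower and 0 higher, where 19.9% of all genes were lower. Their summed level was 4176 to 11269 CPM in summer and 269 to 1623 CPM in winter, lower in 6 of 6 bears. Among winter libraries, that of bear 1511 had the highest sums of leukocyte (100.2 CPM), adipocyte (468 CPM) and fibroblast markers (1623 CPM). The next leukocyte sum was 95.3 CPM, in bear 1305. The endothelial sum of bear 1511 in winter, 394 CPM, was within the range of the others. The part of all these cells in the difference of UCP2 was not tested, and in bulk muscle fewer cells of a type and less RNA per cell cannot be told apart.

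**Figure D2:**
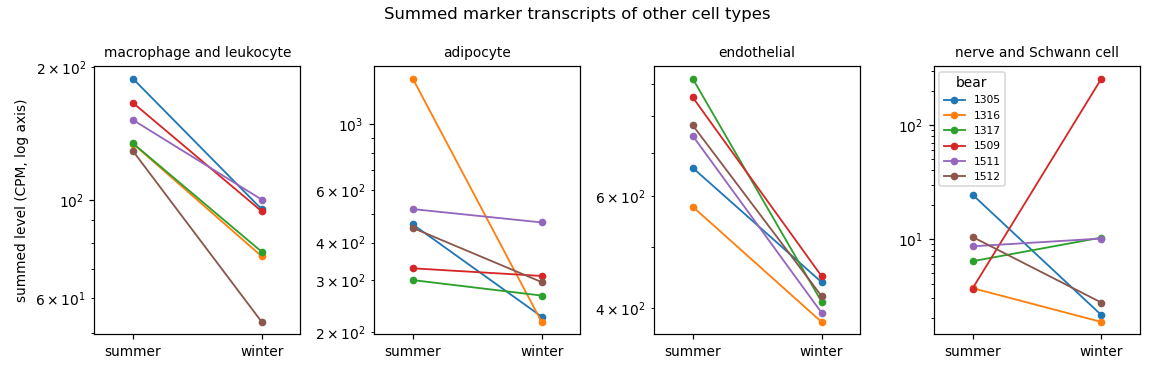
Summed level of the marker transcripts of 4 cell types (CPM, log y axis with its own range in each panel) in summer and winter, with a line per bear. The summed levels of leukocyte, adipocyte (mostly FABP4) and endothelial markers were lower in winter in each bear. Nerve and Schwann cell markers reached 258.1 CPM in the winter library of bear 1509.

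SLC25A14 and SLC25A27, the uncoupling proteins best known from neurons, were counted on few reads, 22 to 68 and 39 to 91 per library. SLC25A14 ran from −0.02 to 0.76 log2 CPM in summer (median 0.38) and from 0.50 to 1.94 in winter (median 0.84), with overlapping groups and a single high library, that of bear 1509 in winter. Its log2 fold change was 0.68 (SE 0.27, adjusted p = 0.0618 in edgeR), with single bears from 0.02 to 1.5. Without bear 1509 the value was 0.41 (adjusted p = 0.168 in edgeR). In that winter library SNAP25, a protein of synaptic vesicle release, stood at 136 CPM, where the medians of the seasons were 0.0458 CPM in summer and 0.0163 CPM in winter. The part of nerve transcripts in the level of SLC25A14 was not tested.

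SLC25A27 lay at 1.16 to 2.01 log2 CPM in summer (median 1.67) and at 1.28 to 1.74 in winter (median 1.5), and the groups overlapped almost entirely. The mean was 1.604 ± 0.30 in summer and 1.51 ± 0.21 in winter (SD, n = 6). The log2 fold change of −0.11 (SE 0.18, adjusted p = 0.649 in edgeR) was within the spread between bears, with 4 bears lower and 2 higher in winter. Bears 1509 and 1511 were those with a higher winter level. UCP1, the uncoupling protein of brown fat, had 3 reads in all, spread over 2 libraries, and was not tested. The other 10 libraries had 0 reads, which allows a level of up to 0.110 to 0.179 CPM, depending on the library total, if 3 reads are taken as the limit (counting error only).

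SLC25A4 was counted at 14457 to 54958 reads per library. It ran from 10.66 to 11.12 log2 CPM in summer (median 10.91) and from 9.67 to 10.60 in winter (median 10.08), and each winter library lay below each summer library, as it did for 8.21% of all genes. The mean was 10.91 ± 0.17 in summer and 10.10 ± 0.30 in winter (SD, n = 6). The log2 fold change was −0.79 (SE 0.15, adjusted p = 0.000955 in edgeR), and SLC25A4 was lower in 6 of 6 bears. The fall was deepest in bear 1317, by 1.38 on the log2 scale, and shallowest in bear 1511, by 0.22. With a replicate block for the bear the log2 fold change was −0.81 (adjusted p = 0.0028 in edgeR), and the highest adjusted p over the alternatives was 0.00756.

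SLC25A5 had 259 to 725 reads per library. Its levels were 4.26 to 4.86 log2 CPM in summer (median 4.67) and 3.59 to 4.74 in winter (median 3.98), and the groups overlapped. Bear 1509 hardly differed, with 4.74 in winter against 4.82 in summer. SLC25A5 was at 4.63 ± 0.25 in summer and 4.06 ± 0.41 in winter (SD, n = 6), lower in 6 of 6 bears with differences from −1.05 to −0.08. The log2 fold change was −0.55 (SE 0.18, adjusted p = 0.0278 in edgeR). This call was lost without bear 1305 (adjusted p = 0.0716), bear 1316 (0.108), bear 1317 (0.0676) or bear 1511 (0.0614) in edgeR. With a replicate block for the bear it held at −0.58 (adjusted p = 0.00888 in edgeR). The summed markers of leukocytes, endothelial cells and fibroblasts were also lower in winter, and their part in the difference of SLC25A5 was not tested.

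SLC25A6 had 867 to 2397 reads per library. It ran from 5.67 to 6.84 log2 CPM in summer (median 5.92) and from 5.58 to 6.34 in winter (median 5.96). The only library away from the rest was the summer library of bear 1316 at 6.84, where the other summer libraries reached at most 6.04. SLC25A6 was at 6.04 ± 0.41 in summer and 5.98 ± 0.25 in winter (SD, n = 6). The log2 fold change of −0.10 (SE 0.18, adjusted p = 0.699 in edgeR) was within the spread between bears, with 4 bears higher and 2 lower in winter. Without bear 1316 it was 0.11 (adjusted p = 0.55 in edgeR). The 3 ADP/ATP carriers are close paralogs and the reads were 50 bases long. How reads that fit more than 1 of them were counted is not given in the sources used here, so reads may have passed between them, and the extent was not tested.

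**Figure D3:**
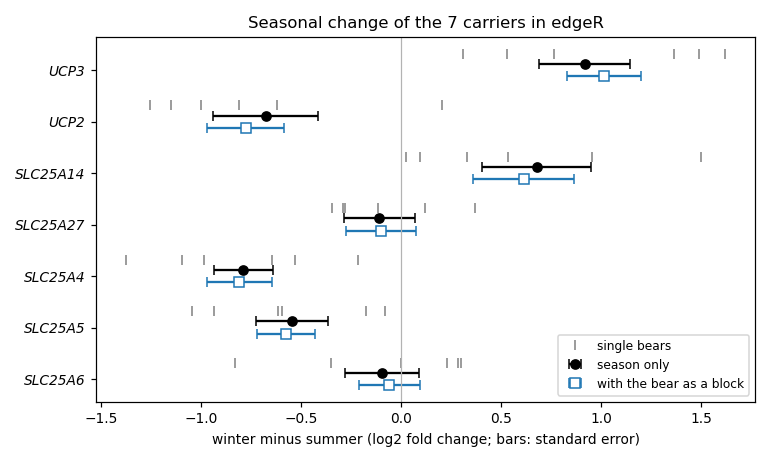
Log2 fold change between winter and summer (x axis) of the 7 carriers, with its standard error, in edgeR with season only and with a replicate block for the bear, and the differences of single bears as ticks. UCP3 lies at 0.92 and SLC25A4 at −0.79, and both fits give similar values for each gene.

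Whether related carriers changed by different amounts was tested on the log2 ratio of their reads in each library, which needs no scaling between libraries. Of 5 pairs compared, 3 differed between seasons in the exact two-sided permutation test of 6 against 6 libraries, with p-values adjusted over the 5 pairs. The UCP3/UCP2 ratio went from 4.49 ± 0.46 in summer to 6.29 ± 0.65 in winter (SD, n = 6), a shift of 1.79 that was positive in 6 of 6 bears (exact p = 0.00216, the smallest this test can give, adjusted p = 0.0108). The SLC25A4/SLC25A6 ratio went from 4.88 ± 0.32 to 4.13 ± 0.31 (SD, n = 6), a shift of −0.75 with 6 of 6 bears lower (exact p = 0.00433, adjusted p = 0.0108). The winter level of SLC25A4 was thus lowered relative to that of SLC25A6.

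The SLC25A4/SLC25A5 ratio shifted by −0.23 with an SD of 0.41 over the 6 bears (exact p = 0.216, adjusted p = 0.216). No difference in the size of their changes was detectable at this spread. The SLC25A5/SLC25A6 ratio shifted by −0.52 with an SD of 0.52 and was lower in 5 of 6 bears (exact p = 0.0779, adjusted p = 0.0974). Without bear 1509 this shift was −0.67 (exact adjusted p = 0.0265), and without bear 1316 it was −0.57 (exact adjusted p = 0.0893). Without bear 1305, 1317, 1511 or 1512 the shift was −0.54 to −0.37 (exact adjusted p = 0.188 to 0.208). The SLC25A14/SLC25A27 ratio rose by 0.69 with an SD of 0.51, in 5 of 6 bears (exact p = 0.0152, adjusted p = 0.0253). Without bear 1509, whose winter library had the highest ratio, it rose by 0.59 (exact adjusted p = 0.0397). Its exact adjusted p was 0.0661, 0.0893 and 0.0926 without bear 1305, 1316 or 1512. With the sign-flip test over bears, the replicate block of this test, the exact p of UCP3/UCP2 and of SLC25A4/SLC25A6 was 0.03125, the smallest that 6 bears allow, and 0.0781 after adjustment, so that form of the test could pass no pair alone. For SLC25A14/SLC25A27 the exact sign-flip p was 0.0625, and 0.104 after adjustment.

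**Figure D4:**
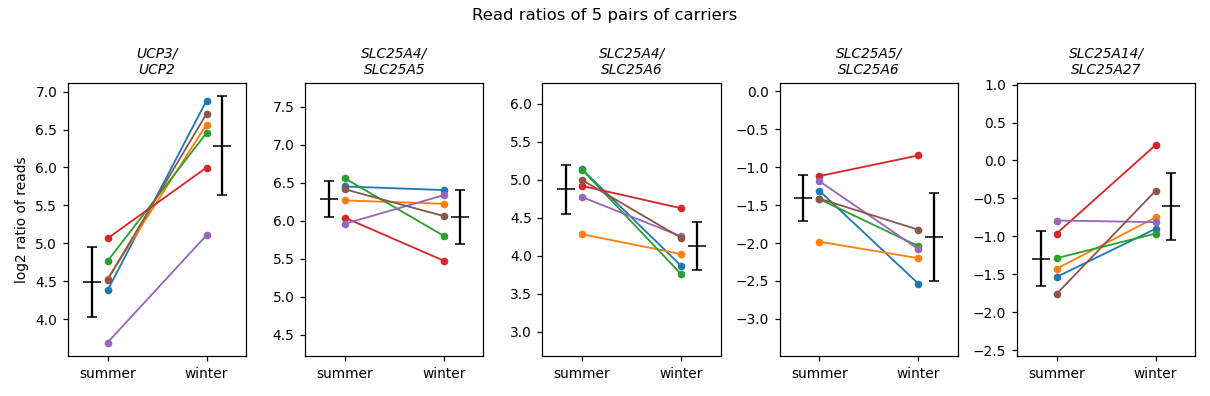
Log2 ratio of the reads of 2 carriers (y axis, 3.6 log2 units in each panel) in summer and winter, with a line per bear and the mean and SD of the 6 libraries beside the points. The UCP3/UCP2 ratio rises and the SLC25A4/SLC25A6 ratio falls in each bear, while SLC25A4/SLC25A5 has lines in both directions.

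Among the reads of the 3 ADP/ATP carriers, not corrected for transcript length, SLC25A4 held 94.0 to 96.2% in summer and 91.6 to 94.1% in winter, a lower share in 6 of 6 bears. The share of SLC25A6 was 2.73 to 4.82% in summer and 3.81 to 6.76% in winter, higher in 6 of 6 bears. The share of SLC25A5 was 1.02 to 1.53% and 1.09 to 2.12%, higher in 4 of 6 bears.

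Of 10 relatives of these carriers listed, 6 passed the filter on low counts, and 2 of these were higher and 1 lower in winter in edgeR, where 39.5% of all genes were called. SLC25A17, the peroxisomal carrier of cofactors and nucleotides, was at 2.09 times its summer level (adjusted p = 3.01e-05), and SLC25A3, which brings the phosphate for ATP synthesis into the matrix, was at 1.31 times (adjusted p = 0.0172), both higher in 6 of 6 bears. SLC25A3 was not called with library totals as the only scaling or without bear 1305, 1509 or 1511. SLC25A25, a calcium-regulated carrier that exchanges ATP-Mg for phosphate, was at 0.294 times its summer level (adjusted p = 0.000618) and lower in 6 of 6 bears. SLC25A30, a kidney carrier close to the uncoupling proteins, had a fold of 0.788 and was not called (adjusted p = 0.0944).

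Of 10 partners of nucleotide exchange, 5 were lower and 1 was higher, where 19.9% of all genes were lower and 19.6% higher. The median log2 fold change was −0.48, against −0.0021 for all genes. CKMT2, the mitochondrial creatine kinase that uses the exported ATP, was at 0.427 times its summer level (adjusted p = 0.000144 in edgeR). The hexokinases HK2 and HK1, which can bind to the outer mitochondrial membrane, were at 0.546 times (adjusted p = 0.000976) and 0.648 times (adjusted p = 0.00623), and the outer membrane channel VDAC1 was at 0.735 times (adjusted p = 0.00926). These 4 genes were lower in 6 of 6 bears each. VDAC3, a paralog of VDAC1, was at 1.24 times (adjusted p = 0.0287 in edgeR), higher in 6 of 6 bears, but was not called with library totals as the only scaling, without the filter on low counts, or without bear 1305, 1316 or 1509.

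Of 16 subunits and regulators of the ATP synthase with a row, 9 were lower and 0 higher at the same threshold in edgeR, where 19.9% of all genes were lower and 19.6% higher, and the median log2 fold change was −0.55. None was higher at an unadjusted p below 0.05 either, and DESeq2 called 0 higher, or 1 with a replicate block for the bear. ATP5PB, a subunit of the stalk, was at 0.589 times its summer level (adjusted p = 0.000393 in edgeR), ATP5PF at 0.600 times (adjusted p = 0.00183), ATP5PO at 0.570 times (adjusted p = 0.00209) and ATP5MF at 0.628 times (adjusted p = 0.00263), each lower in 6 of 6 bears. Of 10 genes of mitochondrial content with a row, 5 were lower and 1 higher, beside the same 19.9% and 19.6% of all genes, with a median of −0.47. OGDH, a subunit of the oxoglutarate dehydrogenase complex, was at 0.5001 times (adjusted p = 0.000223), SDHB at 0.583 times (adjusted p = 0.00047) and HSPD1 at 0.626 times (adjusted p = 0.000506). NDUFS1, a subunit of complex I, was at 0.513 times and IDH3A, a citric acid cycle enzyme, at 0.643 times, while TOMM20, an import receptor of the outer membrane, was at 2.36 times its summer level (adjusted p = 3.79e-06). The fold of SLC25A4, 0.579, thus lay within the range of these lower genes.

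UCP3 is a known target of the fatty acid sensing PPAR receptors. Of 21 regulators and targets of the PPAR and PGC-1 system with a row, 8 were higher and 5 lower, where 19.6% of all genes were higher and 19.9% lower, and the median log2 fold change was 0.17. ANGPTL4, a secreted inhibitor of lipoprotein lipase, was at 9.004 times its summer level (adjusted p = 0.000466 in edgeR), on 8 to 379 reads per library. CPT1A, which commits fatty acids to mitochondrial import, was at 2.32 times (adjusted p = 0.000298) and its partner SLC25A20, the acylcarnitine carrier, at 2.06 times (adjusted p = 9.03e-05). These 3 genes were higher in 6 of 6 bears, as was UCP3, where 37.4% of all genes moved in the same direction in all bears. CPT1B, the other CPT1 gene listed, rose less, to 1.56 times (adjusted p = 0.00306 in edgeR), also in 6 of 6 bears. The part of PPAR receptors in the difference of UCP3 was not tested. PPARA, the receptor gene itself, was at 0.484 times (adjusted p = 0.000482) and lower in 6 of 6 bears. The others that were lower were PPARD, another PPAR receptor, at 0.530 times, HADHB, a beta-oxidation enzyme, at 0.469 times, the fatty acid binding protein FABP3 at 0.570 times and the nuclear receptor ESRRA at 0.716 times. PPARGC1A, the gene of PGC-1α, had a fold of 0.939 and was not called (adjusted p = 0.814).

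**Figure D5:**
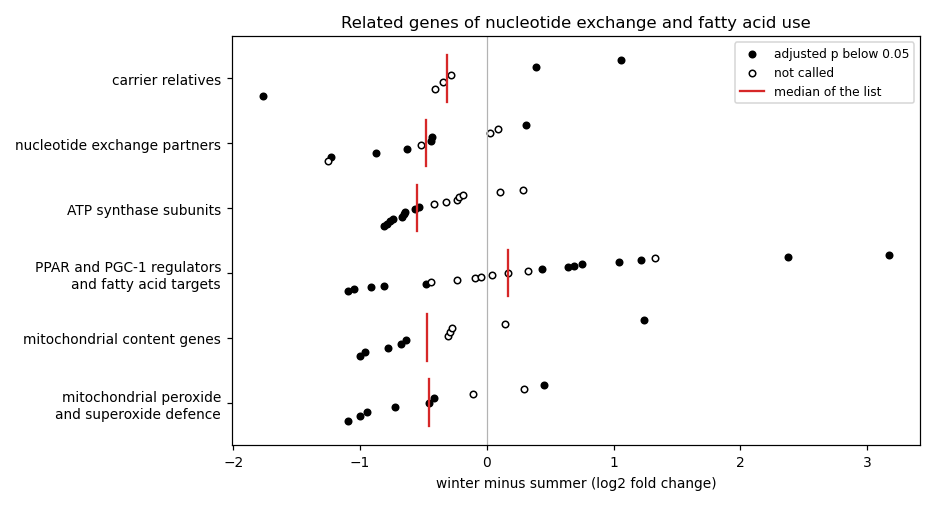
Log2 fold change between winter and summer (x axis) of the genes in 6 related lists, with filled points for genes at an adjusted p below 0.05, open points for the others and a red line at the median of each list. The ATP synthase list has its median at −0.55, and the PPAR and PGC-1 list spreads to both sides, up to ANGPTL4 at 9.004 times its summer level.

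The genes whose profiles lay nearest to a carrier were found by the root mean square difference of log2 CPM over the 12 libraries, after each of 10345 genes was centred on its own mean. For UCP3 these were ATAD5 (0.28), GVQW3 (0.29) and RAB33B (0.30), where the SD of UCP3 itself over the 12 libraries was 0.67. For SLC25A4, with an SD of 0.48, they included MRPL37 (0.15) and GRPEL1 (0.16). The nearest genes were ARHGAP42 (0.23), CMTM3 (0.25) and ROBO1 (0.25) for UCP2 and CKS1B (0.14), TRMT11 (0.17) and STARD3NL (0.19) for SLC25A5. For SLC25A6 they were UBE2S (0.14), HHATL (0.15) and BLOC1S4 (0.15), and for SLC25A27 LRRCC1 (0.14), TSEN15 (0.16) and PPFIBP2 (0.16). The libraries of a season share that season's shift, so any gene of like direction and size comes near.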

How the data were processed

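Stranded mRNA libraries were made and sequenced as single-end reads by the authors, who aligned them with TopHat (version 2.1.1 in the submitters' processing notes) to the brown bear assembly ASM358476v1 and counted reads per gene with featureCounts (1.6.2), strand-specifically. The deposited values are these counts, neither normalized nor filtered, with 0 rows without a gene name. The labels do not assign the sequencing lanes, so a lane effect was not tested. Intervals were not drawn from the counts, and limits for 0 reads cover counting error only.

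With R 4.3.3 and edgeR 4.0.16, genes needed at least 30 reads in all 12 libraries together, TMM set the scaling, and the quasi-likelihood fit and test (glmQLFit, glmQLFTest) had season as their term. The standard error is the log2 fold change divided by the root of F. The alternatives were a replicate block for the bear, DESeq2 1.42.0 with and without it, limma voom (3.58.1), RLE factors, library totals, no filter, filterByExpr, stricter limits and each bear left out. Ratios of 2 carriers had 0.5 added to each count (2 as an alternative).

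Each animal was sampled in both seasons. After the season means were taken off, both libraries of 1 bear correlated at r = 0.0903 to 0.344 (median 0.237). The 30 pairs from different bears had r of −0.214 to 0.142 (median −0.0634), so the ranges overlapped. Within a season the lowest chi-square per gene between libraries was 30.2, where counting noise gives 1, so no library copies another.

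The 7 members and the lists were chosen with earlier results of these data known. Named were all members, the called genes of each list (at most the 4 with the smallest adjusted p, and those a small count refers to) and the 3 nearest profiles of each member whose mean level reached 1 log2 CPM. SLC25A30, PPARGC1A and further single genes outside this rule were named after their values were seen. Rows were matched by symbol, and for MYH1, MYH7 and SYT1 by gene ID through RefSeq's UrsArc2.0 table. SLC25A24, ATP6, ATP8, ACOT2, 4 genes of mitochondrial content, MYH2 and 3 erythroid genes were not analysed here. The erythroid markers with a row summed to 0.0364 to 1.65 CPM in summer and 0.204 to 2.10 CPM in winter, and the 6 fibroblast markers to 4176 to 11269 CPM and 269 to 1623 CPM. The fits were tested on simulated data. Single values of a few listed genes are not reported here.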

Additional observations from a re-analysis of the deposited data

Results flagged for a closer look

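A library was singled out where it lay far from the others of the season by Dixon's 95% critical value, which chance passes in about 1 of 20 groups, and 24 groups were screened. SLC25A14 stood at 1.94 log2 CPM in the winter library of bear 1509, above the other winter libraries at 0.50 to 0.93. That library also had 258.1 CPM of nerve and Schwann cell markers, and the part of these in SLC25A14 was not tested. SLC25A6 stood at 6.84 log2 CPM in the summer library of bear 1316, above the other summer libraries at 5.67 to 6.04. The SLC25A5/SLC25A6 ratio of the same library was accordingly low, at −1.98 against −1.42 to −1.12 on the log2 scale. That library had the highest adipocyte marker level, 1424 CPM, whose part in SLC25A6 was not tested.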

How the results depend on the processing

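The calls of UCP3 (log2 fold change 0.81 to 1.11 with a bear left out) and SLC25A4 (−0.92 to −0.68) held under every alternative run. UCP2 was called at −0.78 with a replicate block for the bear, −0.67 in DESeq2, −0.77 in DESeq2 with that block, −0.83 in limma voom and −0.75 with library totals, and lay at −0.95 to −0.58 with a bear left out. SLC25A14 was called in DESeq2 at 0.68. SLC25A5 (−0.55) missed the stricter limits and lay at −0.67 to −0.44 with a bear left out. SLC25A6 changed sign without bear 1316, to 0.11 (range −0.19 to 0.11). With the sign-flip test as the replicate block, the shifts of UCP3/UCP2 (1.79), SLC25A4/SLC25A6 (−0.75) and SLC25A14/SLC25A27 (0.69) lost their call. UCP3/UCP2 and SLC25A4/SLC25A6 were at the smallest p of that test, where a call needs at least 4 of the 5 pairs at that p. SLC25A14/SLC25A27 had an exact sign-flip p of 0.0625 and missed the threshold before any adjustment. With a bear left out SLC25A4/SLC25A6 spanned −0.84 to −0.62, SLC25A14/SLC25A27 0.56 to 0.83 and SLC25A5/SLC25A6 −0.67 to −0.37. For the other calls the cause was not tested.

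Of the carriers, 2 were higher in DESeq2, and 1 to 2 were lower with a bear left out and 1 under the stricter limits. Among the relatives, 1 was higher with library totals and under the stricter limits and 1 to 2 with a bear left out, while 2 were lower with library totals and 1 to 2 with a bear left out. Of the exchange partners, 0 were higher with library totals, without the filter and under the stricter limits, and 0 to 1 with a bear left out. DESeq2 with a replicate block for the bear called 1 ATP synthase subunit higher. Of the PPAR list, 3 were lower under the stricter limits and 3 to 6 with a bear left out. Of the peroxide and superoxide list, 0 were higher and 3 lower under the stricter limits, and 0 to 1 higher with a bear left out. The replicate block of edgeR changed no other call of a carrier. Library totals moved the median of all genes from −0.0021 to −0.081. Of 355 values under alternatives, 308 kept their direction and side of the threshold or stayed within 1.5 times of the count. Depth limits SLC25A14, SLC25A27 and UCP1.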

Other observations

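Uncoupling proteins are often discussed beside mitochondrial defence against superoxide and peroxide. Of 9 genes of this defence, 6 were lower and 1 was higher in winter in edgeR (adjusted p below 0.05). The median log2 fold change was −0.45, and 39.5% of all genes were called. PRDX3, the mitochondrial peroxiredoxin, was at 0.519 times its summer level (adjusted p = 0.000101), PRDX5 at 0.469 times (adjusted p = 0.000544) and GPX4, which reduces lipid peroxides, at 0.499 times (adjusted p = 0.00174), each lower in 6 of 6 bears. TXN2, the mitochondrial thioredoxin, was at 0.747 times (adjusted p = 0.0161). GLRX2, a mitochondrial glutaredoxin, was the one that rose, to 1.36 times (adjusted p = 0.0219), in 5 of 6 bears. SOD2, the superoxide dismutase of the matrix, had a fold of 0.928 and was not called (adjusted p = 0.567).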
